A study of Mus musculus with 8 samples.

Results

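The 9 genes described here carry out or adjust the Notch response inside the cell: the HES and HEY repressors Hes1, Hes6, Hey1, Hey2 and Heyl, the nuclear partners Rbpj and Maml1, and the modulators Nrarp and Lfng. They were taken by name, as 9 of the 21938 protein-coding genes of the GENCODE annotation on the assembled chromosomes of build mm10, and each was read over its gene body plus 50 kb on either side. These windows held 158 of the 105600 merged H3K56ac peaks, or 0.150% of the list. H3K56ac is the acetylation of lysine 56 in the core of histone H3, a mark that SIRT6 can remove. It was measured by chromatin immunoprecipitation and sequencing in muscle stem cells (MuSCs) sorted straight from C57BL/6 mice. The groups were Control and Sirt6mKO. The paper calls the Control cells wild type, and for other experiments it defines control mice as Sirt6 fl/fl without Cre. In Sirt6mKO, Cre made from the Pax7 promoter deletes the floxed Sirt6 alleles (Sirt6 fl/fl) throughout the skeletal muscle lineage and not in MuSCs alone. Each genotype had 2 H3K56ac libraries and 2 input libraries of chromatin without precipitation, and the study used adult male mice.

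The peaks came as a single merged list with no value for a genotype or a replicate. Every number below is thus a position, a width or a covered length in the merged set, with no replicate error and no depth of its own; the read totals that the study lists for the libraries were not used here. Sirt6mKO could not be set against Control at these genes. The paper reports a global increase in the number of H3K56ac peaks in Sirt6mKO MuSCs. It also describes the peaks after loss of Sirt6 as much broader than those of other histone marks. Which genotype gave a merged peak its presence or width cannot be told from this list, so no width below is that of Control cells alone. As a check of the labelled cell type, the promoters of 9 of 9 MuSC marker genes carried a peak, where 67.8% of all protein-coding genes do, and 8 of these reached at least 5 kb, where 16.5% do. Of 21 markers of endothelial, haematopoietic, fibro-adipogenic, smooth muscle and Schwann cells, 12 carried a promoter peak and 4 reached 5 kb. Among the 5 endothelial markers the widest promoter peak was 12975 bp at Tek, 3440 bp at Pecam1 and 1139 bp at Kdr, and Cdh5 and Emcn had none. The 4 smooth muscle and pericyte markers had 8640 bp at Acta2, 6912 bp at Cspg4, 2081 bp at Myh11 and none at Rgs5. The fibro-adipogenic marker Dcn, at 5233 bp, also passed 5 kb. Cells positive for Sca1, CD45 or CD31 were removed during the isolation. The study checked its sorted cells again and reports a purity well short of complete, which leaves a sizeable minority of cells outside the intended population. What remaining cells of other types contribute to the peaks at the Notch genes was not tested.

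Notch is a receptor that is cut when it binds a ligand on a neighbouring cell. The freed intracellular part enters the nucleus, where it joins the DNA-binding protein RBPJ and a Mastermind coactivator such as MAML1 and switches on genes of the HES and HEY families. In resting MuSCs this signal is known for holding the cells in quiescence, and HEY1 and HEYL are the effectors best known for that role. HES6 counteracts HES1, NRARP is a feedback inhibitor that is itself induced by Notch, and LFNG is a Fringe glycosyltransferase that adds sugars to the receptor and so alters which ligands it answers to.

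RBPJ recognises a short element whose high-affinity form is GTGGGAA, with GTGTGAA as a related form, and 2 such elements facing each other can bind a dimer of Notch complexes. The sequences below show where these letters lie at the genes whose peaks are described later. Each is given 5′ to 3′ on the strand of the gene, from the RefSeq GRCm38 assembly (the same build as mm10), with the elements in capitals; an element on the opposite strand reads TTCCCAC or TTCACAC. Positions are counted from the reference transcription start site (TSS), which is position 0, and negative positions lie upstream.

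At Hes1 a facing pair occupied chr16:30065244-30065303 on the + strand, upstream of the first exon of the reference transcript. The annotated gene begins farther upstream, at 30064384, so the stretch lies within its bounds. GTGGGAA began at -81 and the opposing GTGTGAA at -58, with 16 bases between them. The Hey1 stretch, which holds a GTGTGAA element on the opposite strand, lies at chr3:8667589-8667625 on the - strand, upstream of exon 1. The Hey2 stretch is at chr10:30842969-30843005 on the - strand, and the Lfng stretch is at chr5:140607217-140607253 on the + strand, again both upstream of the transcribed part. For Heyl, 29 bases around its element, which lies inside exon 1 at position 128, are shown from chr4:123233673-123233701 on the + strand.
Hes1: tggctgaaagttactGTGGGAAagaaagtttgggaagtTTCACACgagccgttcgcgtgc
Hey1: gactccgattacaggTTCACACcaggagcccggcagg
Hey2: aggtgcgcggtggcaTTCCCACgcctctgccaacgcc
Heyl: cgcccggggccTTCCCACggttcggtggc
Lfng: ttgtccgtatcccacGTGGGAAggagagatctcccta

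Within 500 bp on either side of the reference TSS, GTGGGAA was found on either strand at 6 of the 9 genes (Hes1, Hes6, Hey1, Hey2, Heyl and Lfng), with 9 matches in all. The same letters occur in 19.4% of the promoters of all protein-coding genes. Hes1, Hey1 and Hey2 had 2 matches each and also carried GTGTGAA, while Rbpj, Maml1 and Nrarp had neither form in this window. A facing pair with 10 to 25 bases between the elements was present at Hes1 and at 0.041% of all promoters, which is 9 of 21938 genes. At the 6 genes with GTGGGAA, the peak over the TSS covered all of the 500 bp searched on either side. That the 9 matches lay inside an H3K56ac peak was therefore fixed by the search window. These matches are strings of letters in a window and were not shown to be bound.

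HES and HEY proteins themselves bind the E-box CACGTG, the related CACGCG and the N-box CACNAG. The second of these was present at 6 of the 9 genes against 27.2% of all promoters. Among protein-coding promoters whose TSS lay in a peak, which are richer in CpG, that share was 40.3%. The N-box was found at 8 genes, and 83.0% of all promoters hold it. The E-box was found at Nrarp and Lfng, with 16.9% of all promoters holding it. At Hes1 the N-box letters beginning at -54 overlap the GTGTGAA element, and at Lfng the CACGTG beginning at -91 overlaps GTGGGAA.

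All 9 genes had an H3K56ac peak within 3 kb of an annotated TSS, as did 67.8% of protein-coding genes, and in all 9 the reference TSS (the start of the transcript that the annotation ranks as principal) lay inside a peak, as it did for 57.9% of protein-coding genes. The widths of these promoter peaks spanned a wide range, from 2271 bp at Lfng to 14439 bp at Heyl. A promoter peak of 5 kb or wider was found at 4 of the 9 genes and at 16.5% of all protein-coding genes, and one of 10 kb or wider at 1 of the 9 and at 2.59%. The median over the 9 genes was 4542 bp, and over all protein-coding genes with a promoter peak it was 3430 bp. The widest promoter peak ran in the order Heyl, Hey1, Rbpj, Hes1, Maml1, Hey2, Nrarp, Hes6 and Lfng. A merged list has no spread, so neighbours in this order cannot be called different. With the reference TSS alone, a promoter of 1 kb or peak midpoints, Rbpj had 5605 bp and fell below Hes1 at 6328 bp.

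**Figure D1:**
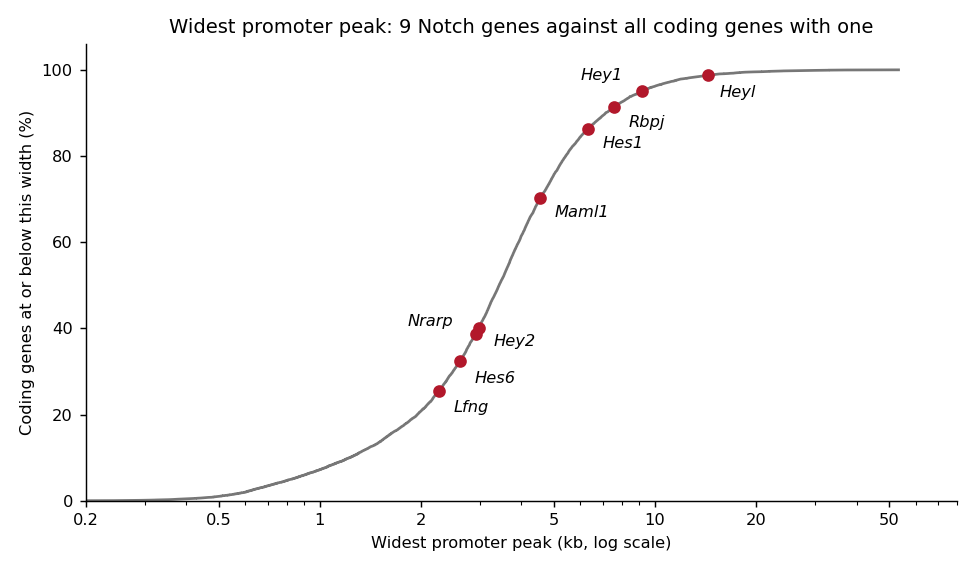
Widest promoter peak of each of the 9 genes (red points; x axis, kb on a log scale) on the cumulative curve of all protein-coding genes that have one (grey; y axis, percent of genes at or below that width). Heyl (14439 bp), Hey1 (9126 bp), Rbpj (7539 bp) and Hes1 (6328 bp) sit on the upper part of the curve, and Lfng (2271 bp), Hes6 (2624 bp), Nrarp (2924 bp) and Hey2 (2980 bp) lower down. The peak over the reference TSS of Rbpj measured 5605 bp.

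Heyl, a HEY repressor, had the widest promoter peak of the 9. The gene lies at chr4:123233556-123249875 on the + strand, and its promoter peak ran from 123225341 to 123239779, reaching 8215 bp upstream and 6223 bp downstream of the TSS. A narrower promoter peak was found at 98.7% of the protein-coding genes that had one. Only exon 1 of the 5 exons lay under this peak, and the next peaks followed almost without a break. A second peak of 5224 bp covered exons 2 to 4 and another of 5146 bp covered exon 5. The gaps between neighbouring peaks here measured 18 to 158 bp. Joined across gaps of less than 1 kb, 6 peaks formed a run of 29119 bp from -8.845 to 20.3 kb around the TSS, past the end of the gene, and 99.2% of the gene body was covered.

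Hey1, the other HEY repressor closely tied to quiescent MuSCs, was covered from end to end by a single peak. The gene is at chr3:8663359-8667256 on the - strand, and the peak of 9126 bp at chr3:8661805-8670930 held all 5 exons, starting 3674 bp upstream of the TSS and ending 5451 bp downstream. No other peak lay near it, the next ones being 13903 bp away upstream and 18793 bp away downstream. Hes1, a Notch target in many tissues whose protein represses its own gene, was also covered in full. Its peak of 6328 bp, at chr16:30062392-30068719, ran from -2948 to 3379 around the TSS and held all 4 exons. It was flanked by smaller promoter peaks of 547 bp upstream and 2140 bp downstream, and a further peak of 1009 bp followed farther upstream. Joined, these 4 peaks spanned 12206 bp.

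Hes6 and Hey2 had narrower peaks. At Hes6 (chr1:91411483-91414038, - strand) the peak over the TSS was 2624 bp wide and held all 4 exons, and 3 further promoter peaks of 911, 1038 and 1364 bp lay on either side. These 4 together spanned 7451 bp when joined. At Hey2 (chr10:30832359-30842801, - strand) a lone peak of 2980 bp reached 2010 bp upstream but 969 bp downstream, so it held exon 1 of 5 and left the rest of the gene bare. The next peaks lay 135271 bp away upstream and 16775 bp away downstream. In the HEY family the covered share of the gene body was therefore complete at Hey1, 99.2% at Heyl and 9.29% at Hey2.

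Rbpj, which encodes the DNA-binding partner of Notch, is the longest of the genes at 191 kb (chr5:53466152-53657362, + strand) and has 12 annotated start sites. The peak over the reference TSS was 5605 bp wide, at chr5:53588111-53593715. It held 4 of these start sites, and 1 more lay in a peak of 2128 bp farther downstream. The widest promoter peak of Rbpj was another one of 7539 bp, which lay within 3 kb of the most upstream start site, 124 kb before the reference TSS, without covering that site. At Maml1, the Mastermind coactivator gene (chr11:50255634-50292311, - strand), a peak of 4542 bp covered the TSS and exon 1 and was separated by 20 bp from a second peak of 3777 bp in the first part of the gene.

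At the modulator Nrarp, a gene of 1 exon at chr2:25180758-25183339 on the + strand, the peak of 2924 bp began 348 bp before the TSS and covered 99.8% of the gene. The peaks carry no strand, so signal from Nrarp and from the antisense gene Gm38287, which lies over it, cannot be told apart. At Lfng (chr5:140607320-140615545, + strand) the peak of 2271 bp reached 1124 bp upstream and 1146 bp downstream, held exon 1 of 8, and was followed by a peak of 1315 bp inside the gene.

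Most of the peaks over the TSS reached farther into the gene than away from it. The downstream reach was the larger one at 7 of the 9 genes, with Heyl and Hey2 as the exceptions, and the medians were 2010 bp upstream and 3244 bp downstream. Over the 12699 protein-coding genes with the TSS in a peak, the medians were 1323 and 1807 bp, and the upstream reach was the larger one in 34.3%. At least 95% of the gene body was covered at 5 of the 9 genes (Hes1, Hes6, Hey1, Heyl and Nrarp) and at 2.27% of all protein-coding genes. Of these 5 genes 4 are short, between 2.56 and 3.90 kb from end to end, and the share of genes of like length was not tested. Heyl, at 16.3 kb, is covered by the run of peaks described above.

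The promoters of these genes were rich in CpG. The ratio of observed to expected CpG within 500 bp of the TSS had a median of 0.862 over the 9 genes, against 0.570 over all protein-coding promoters and 0.734 over those with the TSS in a peak. Rbpj had the highest ratio at 1.03 and Heyl the lowest at 0.537. Hes1 was the one promoter with a low content of G and C, at 45.8%, where the other 8 lay between 62.2% and 73.7%. Away from promoters the sequence under the peaks was of another kind: the 101 distal peaks at no promoter had a median CpG ratio of 0.205, and the 9 peaks over the reference TSS had 0.679.

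Peaks covered a median of 32.5% of the 9 windows, with a range from 7.43% at Hey2 to 55.8% at Hes6, and a median of 9.46% of the windows of all protein-coding genes. Between these ends lay Hes1 at 19.0%, Nrarp at 20.05%, Lfng at 21.9%, Heyl at 32.5%, Hey1 at 33.0%, Maml1 at 35.1% and Rbpj at 36.2%. The covered share was above the median of all protein-coding genes at 8 of the 9, Hey2 being the exception. Windows that hold more genes hold more peaks, and this differed among the 9 windows. By reference TSS, no other protein-coding gene started in those of Hes1, Hey1, Hey2 and Rbpj, while 2 started in those of Heyl and Lfng, 3 in that of Hes6, 4 in that of Maml1 and 5 in that of Nrarp. Other annotated starts, such as one of Ncoa7 in the Hey2 window, are not in these counts.

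**Figure D2:**
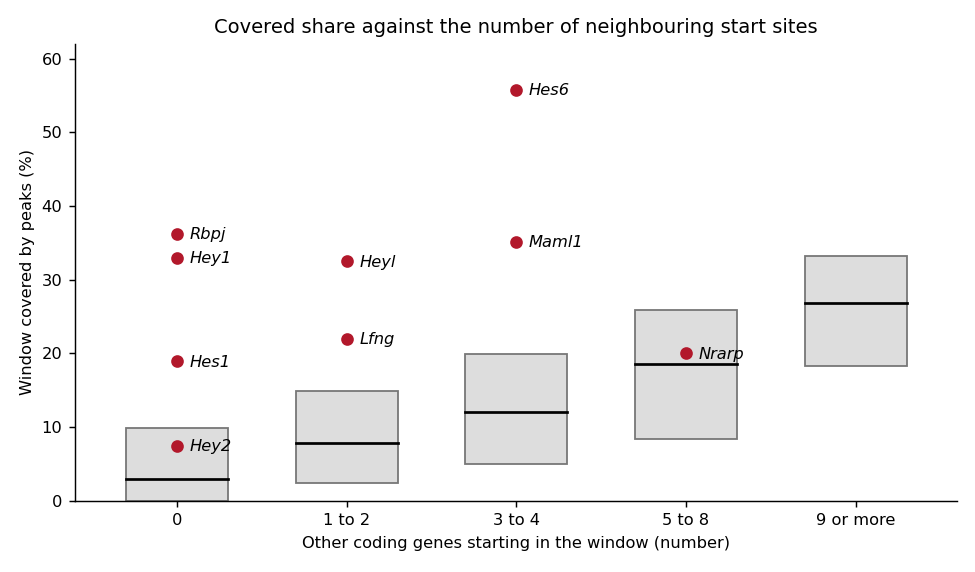
Covered share of the window (y axis, percent) by the number of other protein-coding genes with their reference TSS in it (x axis). Grey boxes give the quartiles and black lines the medians over all protein-coding genes, and red points are the 9 genes. Rbpj (36.2%) and Hey1 (33.0%) lie well above the median of 2.92% for windows with no other reference TSS, while Nrarp (20.05%) lies near the median of 18.5% for its class.

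Set beside windows with a like number of neighbours, the shares at Hes6, Rbpj, Hey1, Maml1 and Heyl were larger than at 99.7%, 96.5%, 95.4%, 95.2% and 95.01% of genes. Hes1 exceeded 87.6%, Lfng 87.0%, Hey2 68.8% and Nrarp 55.0%. Among genes whose TSS lay in a peak, as it did in all 9, the median share was 7.66% with no such neighbour and 22.7% with 5 to 8, and Hey2 and Nrarp were below these medians. The length of the windows, which is 291 kb for Rbpj and at most 137 kb for the others, was not matched. Widening the flanks to 100 kb lowered the median over the 9 windows to 21.3%.

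**Figure D3:**
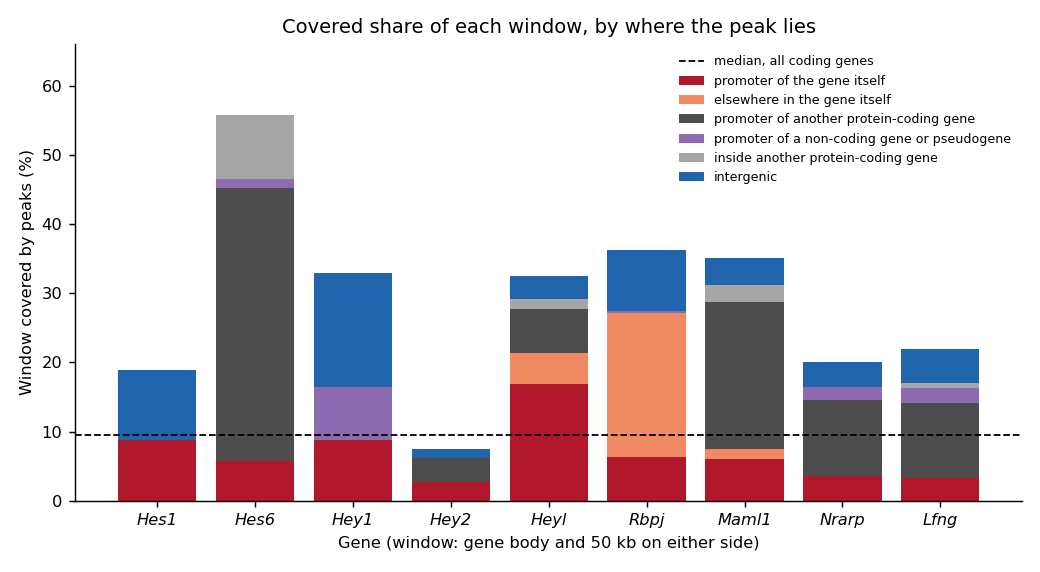
Share of each window covered by peaks (y axis, percent), split by where the peak lies; the dashed line is the median of 9.46% over all protein-coding genes. The bars of Hes6 and Maml1 are mostly peaks at the promoters of neighbouring genes, that of Rbpj mostly peaks inside Rbpj, and those of Hes1 and Hey1 hold no peak at another protein-coding promoter.

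Distal peaks, here those in the window and more than 3 kb from every start site of the gene, numbered 135 over the 9 windows, from 3 at Hey2 to 43 at Rbpj. They were narrower than the promoter peaks as a group, with medians of 1001 and 2271 bp. By location, 48 were intergenic, 39 lay inside one of the 9 genes, 28 within 3 kb of a start site of another protein-coding gene, 14 elsewhere inside another protein-coding gene and 6 within 3 kb of a start of a non-coding gene or pseudogene. The number depended on the rule: it was 69 with flanks of 20 kb, 217 with flanks of 100 kb and 71 when peaks less than 1 kb apart were joined.

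**Figure D4:**
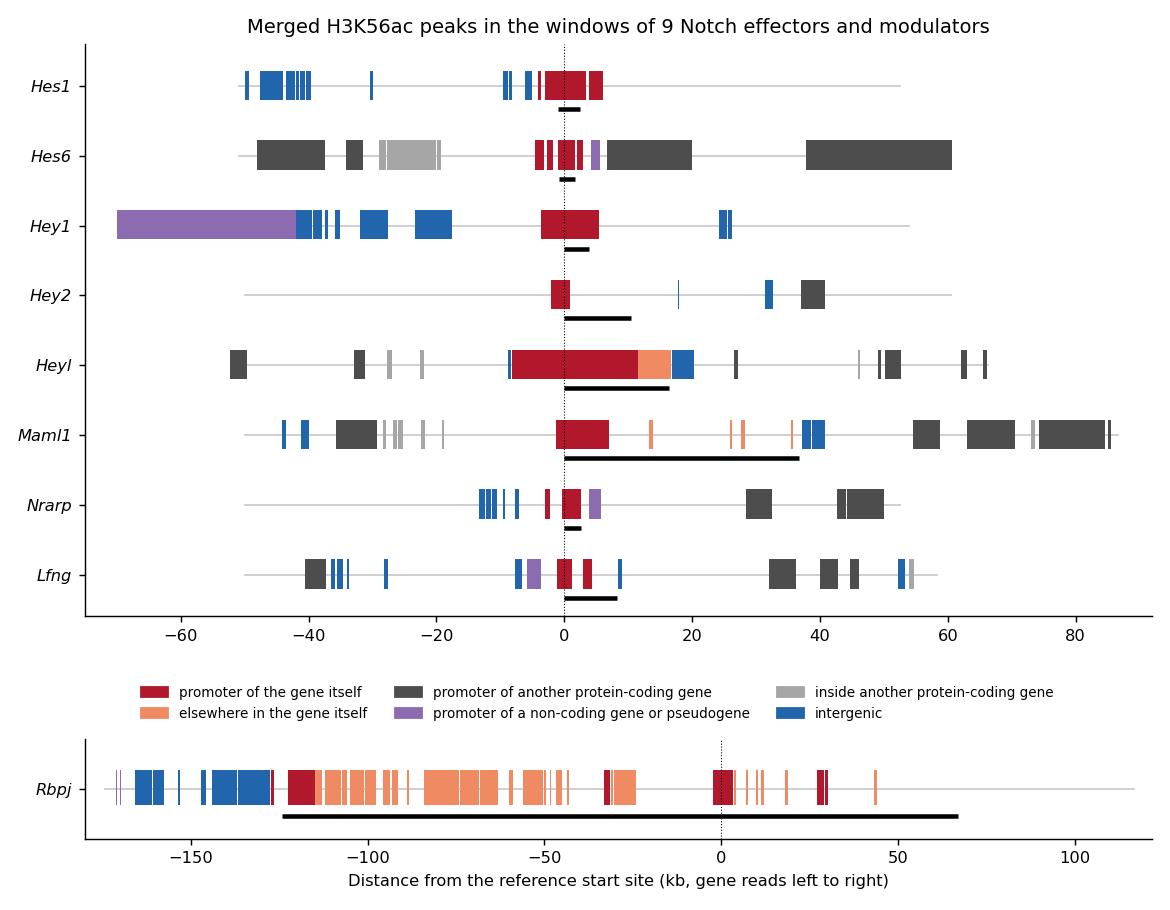
Every merged H3K56ac peak (coloured boxes, by location) in the windows of the 9 genes, drawn to scale against the distance from the reference TSS (x axis, kb; each gene reads left to right). Grey lines are the windows and black bars the gene bodies, with Rbpj on a longer axis. From 50 to 20 kb upstream of the TSS, peaks cover 73.7% of the sequence at Hes6, 69.6% at Hey1 and 39.4% at Rbpj. The upstream flank of Hey2 holds no distal peak.

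Upstream of Hey1 the peaks thickened with distance. Between 50 and 20 kb before the TSS, 69.6% of the sequence lay in peaks, against 14.2% over the protein-coding genes with the TSS in a peak. A peak of 4977 bp began the series 17578 bp from the TSS, a peak of 4365 bp lay beyond it, and from 37.0 kb outwards 13 peaks followed each other with gaps under 1 kb for 47.3 kb. The widest of them measured 27890 bp (chr3:8709256-8737145), the widest distal peak of any of the 9 windows, and 19889 bp of it lay past the window's edge. It covers a start site of the long non-coding RNA gene C230057A21Rik, and the nearest start of a protein-coding gene was that of Hey1, at 42.0 kb.

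This wide peak also held facing pairs of RBPJ elements, and they are shown because such pairs are rare. Both are made of GTGGGAA followed by an opposing GTGTGAA. The first, with 11 bases between the elements, lies at chr3:8717548-8717602 on the - strand, 291 bp outside the window, and the second, with 10 bases between, at chr3:8712528-8712581.
Hey1 upstream, first: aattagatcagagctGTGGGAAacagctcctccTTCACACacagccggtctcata
Hey1 upstream, second: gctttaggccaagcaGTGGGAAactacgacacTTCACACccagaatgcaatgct
One more facing pair was found in a distal peak of 935 bp within Rbpj, 24.7 kb before the reference TSS, with 17 bases between 2 GTGTGAA elements, the first of which adjoins a GT repeat. Together with the Hes1 promoter this made 4 pairs in the 386 kb of sequence under the peaks of the 9 genes. The whole list held 117 pairs in 183928 kb, or 0.636 per Mb. The range of 10 to 25 bases was a setting of the search. Whether a dimer can form at each spacing found, such as the 11 and 10 bases upstream of Hey1, was not tested.

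Single GTGGGAA matches were spread more evenly. There were 0.396 per kb in the promoter peaks of the 9 genes and 0.305 per kb in their distal peaks. The peaks at all protein-coding promoters held 0.220 per kb and the remaining peaks of the list 0.233 per kb. Among the 9 genes the promoter peaks ranged from 0.240 per kb at Maml1, with 2 matches, to 1.01 per kb at Hey2, with 3 matches.

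At Rbpj the peaks were numerous and lay to one side. The 124 kb from the start of the gene to the reference TSS were covered to 54.8%, and the 66.9 kb from the reference TSS to the end of the gene to 15.4%. The 50 kb before the gene were covered to 54.3% and the 50 kb after it held no peak. Inside the gene 34 distal peaks were found, of which the widest measured 8190 bp, at chr5:53508000-53516189 and 74.3 kb before the reference TSS. It belonged to a run of 4 peaks over 20.9 kb.

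All 11 of the distal peaks of Hes1 were intergenic and upstream. Of these, 6 formed a run of 8.00 kb from -47.6 to -39.6 kb, with gaps of 58 to 440 bp, and the widest measured 3643 bp (chr16:30017705-30021347). From 20 to 50 kb downstream of the Hes1 TSS no base was covered. The distal peaks made up 54.0% of the covered length in its window, against 73.4% at Hey1 and 48.0% at Heyl.

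In the other windows much of the distal signal lay at other genes. At Hes6, 70.7% of the covered length was in peaks at the promoters of Klhl30, Erfe, Ilkap and Per2. The widest, of 20928 bp (chr1:91352544-91373471), covers a start of the hormone gene Erfe and lies within 3 kb of that of Klhl30, and another of 9526 bp lies over the start of the clock gene Per2, which Hes6 has as its upstream neighbour. At Maml1 the share in peaks at other promoters was 60.2%; the widest distal peak, of 9488 bp (chr11:50208519-50218006), covers the start of the autophagy receptor gene Sqstm1, with further ones at Mgat4b, Ltc4s and the chaperone gene Canx.

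At Nrarp this share was 54.9%, and the widest distal peak, of 5782 bp (chr2:25224949-25230730), lies 0.247 kb from the reference start of the tubulin gene Tubb4b. The same peak overlaps Slc34a3 and lies within 3 kb of a start site of that gene. A cluster of 5 intergenic peaks of 451 to 935 bp was also found upstream of Nrarp, from -13306 to -7145 bp around its TSS. At Lfng the share was 49.5%, and the widest distal peak, of 4229 bp (chr5:140639280-140643508), lies inside Ttyh3. At Hey2 the widest of its 3 distal peaks, of 3811 bp (chr10:30801988-30805798), lies at a start site of Ncoa7, 37.0 kb downstream of the Hey2 TSS. Heyl differed in that its widest distal peak, of 5146 bp, lay in Heyl itself. The peaks at Nt5c1a, Pabpc4 and Hpcal4, its neighbours, made up 19.4% of the covered length.

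**Figure D5:**
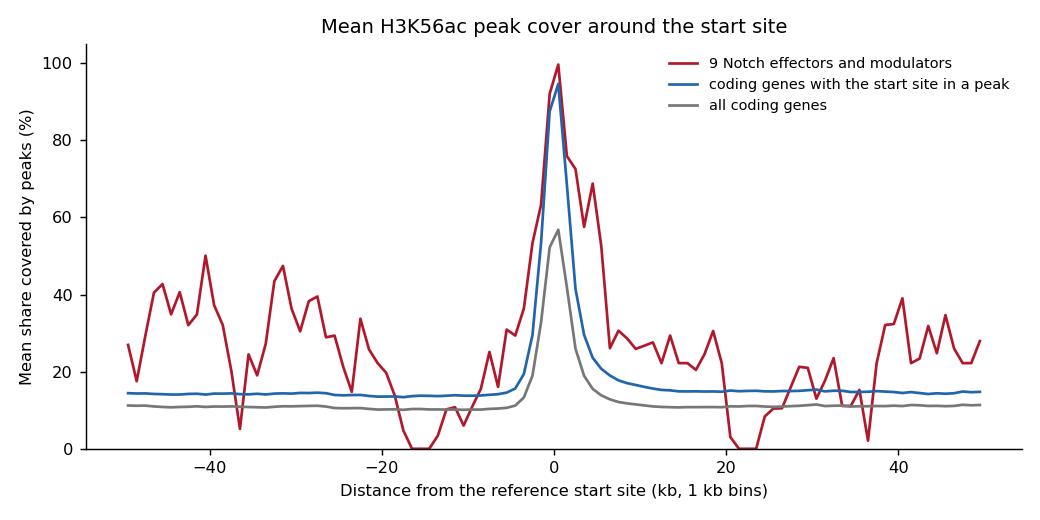
Mean share of each 1 kb bin covered by peaks (y axis, percent) by distance from the reference TSS (x axis, kb) for the 9 genes (red), the protein-coding genes with the TSS in a peak (blue) and all protein-coding genes (grey). Averaged over the segment, the 9 genes lie above the blue line from 3 to 5 kb downstream (63.2% against 26.6%) and from 50 to 20 kb upstream (30.9% against 14.2%), and below it from 20 to 5 kb upstream (11.1% against 13.8%); these are means over each segment, not values of every bin.

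The mean cover by distance from the TSS rested on most of the 9 genes in one place and on a few in another. From 3 to 5 kb downstream it was 63.2%, beside a mean of 26.6% over the protein-coding genes with the TSS in a peak. Of the 9 genes, 8 lay above that mean. How many of all those genes do so is not given here, so this count has no like value beside it. Single genes ranged from no cover at Hey2 to full cover at Hey1 and Heyl. From 50 to 20 kb upstream it was 30.9%, with 73.7% at Hes6, 69.6% at Hey1 and 39.4% at Rbpj on one side and no cover at Hey2 and Nrarp on the other.

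For the rest of the pathway, promoter peaks were present at 51 of 54 further Notch genes, beside 67.8% of all protein-coding genes, and in 20 it was 5 kb or wider, beside 16.5%. All 9 receptor and ligand genes had a promoter peak, with a median of 5235 bp, and 3 of them passed 10 kb: the receptors Notch1 at 13768 bp, Notch2 at 53370 bp and Notch3 at 22371 bp. At Notch4, Dll3 and Jag2, as at Mfng, Numb and Hes7 of the other lists, no peak held the reference TSS itself. Among the 16 nuclear partners, 16 had a promoter peak, with a median of 3888 bp, and the acetyltransferase gene Kat2b was the one above 10 kb, at 16046 bp. Of the 24 genes for processing and modulation of the receptor, 23 had one, with a median of 3841 bp. Those above 10 kb were the Deltex gene Dtx4 at 24026 bp, the ubiquitin ligase gene Mib1 at 15001 bp and the presenilin gene Psen2 at 12605 bp.

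Of the remaining HES family genes Hes2, Hes3, Hes5, Hes7 and Helt, 3 of 5 had a promoter peak, beside the same 67.8%, and neither Hes3 nor Helt did. Hes5, named here after its values were seen, had a promoter peak of 6867 bp and a body covered in full. Dner, a Notch ligand known from neurons, was the third pathway gene with none, and its window held no peak at all. When peaks less than 1 kb apart were joined, 32 of the 54 genes reached 5 kb. Among the 9 genes described above 6 did so (Hes1, Hes6, Hey1, Heyl, Rbpj and Maml1), their median rose to 8339 bp, and 27.8% of all protein-coding genes passed the same mark.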

How the data were processed

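Chromatin from freshly sorted MuSCs was precipitated for H3K56ac and sequenced, with 8 libraries in 4 groups of 2. The authors trimmed the reads, aligned them to mm10 with Bowtie keeping unique alignments, removed duplicates, called peaks with MACS2 at q of 0.05, removed blacklisted regions and merged overlapping peaks. FastQC, Bowtie, SAMtools and deepTools are named in the submitters' processing notes. The deposited list gives chromosome, start and end, and its score column is 0 in every row and holds no measurement. Which libraries entered the merge is not given in the sources used here. The list has 0 columns of values per sample, so it carries no depth, the study's read totals per library were not used here, and merging can widen or fuse peaks.

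Peaks were compared with GENCODE vM21 genes on GRCm38, the same build as mm10, by an overlap of at least 1 bp. A promoter peak lies within 3 kb of any annotated TSS of the gene, and a window is the gene body and 50 kb on either side. All values were computed in Python 3.11.15 with numpy 2.4.6, and the functions were tested on simulated intervals. Motifs were searched on both strands within 500 bp of the reference TSS. GTGGGAA and facing pairs were also searched under all peaks of the list, which was not part of the plan. Some of the promoter stretches that hold an RBPJ form are printed, and one of the others is not reported here. The text names all 9 genes, their widest distal peaks with the genes whose promoters these touch, and pathway genes with a promoter peak of at least 10 kb or none. The genes and lists were chosen with earlier results of these data known. The planned test of Sirt6mKO against Control could not be run, since it needs counts per library. Alternatives were a promoter of 1 kb, other sets of start sites, joined peaks, peaks of at least 500 bp, peak midpoints, flanks of 20 or 100 kb, and other motif settings.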

Additional observations from a re-analysis of the deposited data

How the results depend on the processing

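All 9 genes kept a promoter peak under every alternative tried. Their median widest promoter peak moved from 4542 bp to 8339 bp when peaks less than 1 kb apart were joined and was 4542 bp under the other 5 alternatives. The median covered share of the windows, 32.5% as reported, was 25.8% with flanks of 20 kb, 21.3% with flanks of 100 kb, 33.3% with joined peaks, 32.2% with peaks of at least 500 bp and 97.8% over the gene body alone. The 135 distal peaks became 69, 217 and 71 with flanks of 20 kb, flanks of 100 kb and joined peaks. The median share of protein-coding genes with a narrower promoter peak was 79.7% and became 80.7% with a promoter of 1 kb, 80.4% with protein-coding transcripts, 81.6% with the reference TSS, 87.2% with joined peaks and 70.1% among genes with a promoter peak. The median share with a smaller covered window, 93.0%, became 82.7%, 80.7%, 91.96% and 93.4% with flanks of 20 kb, flanks of 100 kb, joined peaks and peaks of at least 500 bp. GTGGGAA was found at 8 genes within 1000 bp of the TSS, where the median CpG ratio was 0.753. The share of all promoters with GTGGGAA in this wider window is not given here, so the 8 genes have no like value beside them. Joining gave 32 further pathway genes with a promoter peak of at least 5 kb. Of 234 values for single genes under an alternative, 127 moved.

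No paired analysis was possible because a union of intervals has no counts for single libraries. For the same reason the replicate block, DESeq2 size factors, the fit without a filter and leaving out each replicate were not run. Widths and counts describe a union of libraries with no depth beside each peak, and the width of a merged peak is not its strength.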
